A study of Mus musculus with 23 samples.

Results

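A set of 9 genes that mark or build the thymic cortex was followed through sorted cells of the thymic medulla, with and without Aire. They were Psmb11, Prss16, Enpep, Tbata, Ly75, Dll4, Foxn1, Ctsl and Pax1, chosen by name as genes of cortical thymic epithelium, and each symbol matched 1 of the 53402 gene identifiers counted. All 9 members were among the 19310 genes with enough counts to be tested. Cortical thymic epithelial cells (cTECs) receive the earliest T cell progenitors, instruct them through Notch and select thymocytes on peptides cut by proteases that are largely their own. Medullary thymic epithelial cells (mTECs) take over afterwards and display peptides of genes otherwise kept to peripheral tissues, many of them under the control of the nuclear regulator Aire. Both lineages descend from common progenitors that depend on the transcription factor Foxn1.

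The study sequenced total RNA from mTECs of C57BL/6 mice, in 23 libraries. The cells had been sorted as DAPI-, CD45-, EpCAM+ and Ly51-, and then as high (mTEChi) or low (mTEClo) for MHC class II. Ly51 is the protein product of Enpep, so the sort kept cells without that cTEC marker on their surface. The groups were Aire KO mTEChi with 4 libraries, WT mTEChi with 7, Aire KO mTEClo with 4 and WT mTEClo with 8. All KO libraries were from males, 2 of 5 weeks and 2 of 6 weeks in each gate. The WT mTEChi libraries were from 5 males and 2 females, 2 of 4 weeks and 5 of 5 weeks, and the WT mTEClo libraries from 5 males and 3 females, 5 of 4 weeks and 3 of 5 weeks. How the Aire allele was disrupted is not given in the sources used here. The labels do not say whether libraries came from separate animals, so p-values measure only the spread between these samples, which may be technical. In sorted bulk samples, fewer cells of a type and less RNA per cell cannot be told apart.

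Levels are given as CPM (counts per 1000000 counts of the library), and levels of different genes are compared only per kilobase of exon. Changes are log2 ratios ± SE from edgeR's quasi-likelihood test, and a gene was called when its p, adjusted over the 19310 genes by Benjamini-Hochberg, was under 0.05. Library totals were 2528049 to 3106026 counts in KO mTEChi, 1602125 to 3231079 in WT mTEChi, 1639231 to 3938588 in KO mTEClo and 1628778 to 3883437 in WT mTEClo. Aire itself averaged 29.3 ± 11.6 CPM in KO mTEChi and 818 ± 56.02 CPM in WT mTEChi, and 2.74 ± 3.53 CPM in KO mTEClo and 69.2 ± 33.4 CPM in WT mTEClo (SD, n = 4, 7, 4 and 8). A set of 6 libraries stood apart because none of the mitochondrially encoded genes had a count in them, against 0.261% to 0.527% of counts in the other 17. They were all 4 KO mTEChi libraries and replicates 3 and 4 of KO mTEClo, which were also the 2 KO mTEClo libraries of 6 weeks. Of genes with at least 10 counts in each of the 17 others, 10 were at 0 in all 6, of which 9 were mitochondrially encoded and 0 were members. In mTEChi this split and the genotype cannot be told apart. In mTEClo the split runs through the KO group together with age and depth, and results are given on both sides of it where that changes them. The 2 KO mTEClo libraries of 5 weeks had 1883769 and 1639231 counts, and the 2 of 6 weeks had 3272356 and 3938588. All other libraries of 5 weeks had at least 2528049 counts. Age, depth and the split cannot be told apart among the KO mTEClo libraries. A term for the split, used below, can be fitted only from the KO mTEClo libraries, 2 of 6 weeks against 2 of 5 weeks. In mTEChi such a fit carries that mTEClo difference over, so its values there are not a correction measured in mTEChi.

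Without Aire, the genes that passed the test lay in both directions in mTEChi, and in mTEClo all that passed rose. In KO mTEChi 4 rose (Foxn1, Tbata, Ly75 and Prss16), 4 fell (Enpep, Ctsl, Dll4 and Pax1) and Psmb11 did not pass the test. Of all tested genes 53.7% passed in that comparison, 25.7% higher and 28% lower. In KO mTEClo 7 rose (Psmb11, Prss16, Tbata, Dll4, Pax1, Foxn1 and Ly75), 0 fell, and Enpep and Ctsl did not pass, while 21.7% of all genes passed, 12% higher and 9.69% lower. The median log2 change of the 9 was 0.34 in mTEChi and 0.82 in mTEClo, against -0.01 and 0.01 over all tested genes.

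**Figure D1:**
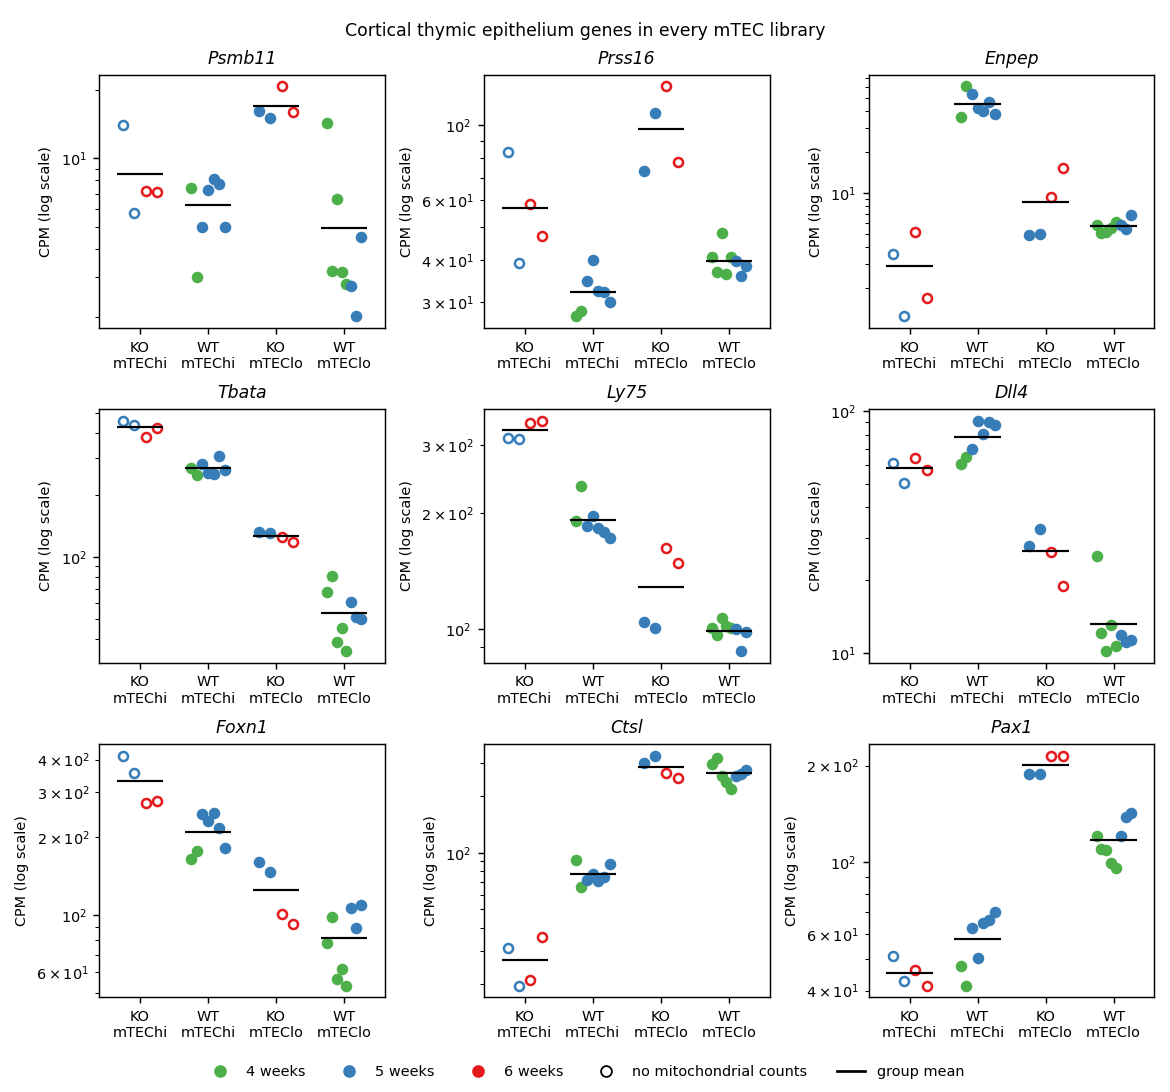
CPM of the 9 genes in each of the 23 libraries, on a log axis, with Aire KO left of WT in each gate; colours give the age of the mice, open circles the libraries without mitochondrial counts and bars the group mean. The KO mTEChi libraries lay below every WT mTEChi library for Enpep and Ctsl, and the KO mTEClo libraries above every WT mTEClo library for Psmb11, Prss16, Tbata and Pax1.

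Among the transcription factors, Foxn1 is the master regulator of thymic epithelium, and its loss in mice leaves no functional thymus. It lies at chr11:78357577-78386558 on the minus strand of GRCm38 (ENSMUSG00000002057). Foxn1 had 414, 356, 270.4 and 276 CPM in KO mTEChi, against a lowest of 165, a median of 218 and a highest of 249 CPM in WT mTEChi, so every KO library lay above every WT library. The change was 0.70 ± 0.20 (adjusted p = 0.00478, 1.62-fold), and it kept its call and sign in all 24 alternative settings, between 0.53 and 1.37. In KO mTEClo the gene had 161, 147, 101 and 92.5 CPM, against 53.2, 83.6 and 109 CPM as lowest, median and highest in WT mTEClo. The 2 KO libraries of 5 weeks were above all WT libraries and the 2 of 6 weeks lay inside their range. The change in mTEClo was 0.67 ± 0.21 (adjusted p = 0.0239), but it was 0.99 (adjusted p = 0.0105) against all WT libraries with the 5-week KO libraries alone and 0.32 (adjusted p = 0.381) with the 6-week ones alone. The call was also lost without KO mTEClo replicate 1 (adjusted p = 0.108) or 2 (adjusted p = 0.0791) and without WT mTEClo replicate 3 (adjusted p = 0.0539) or 4 (adjusted p = 0.055), with a term for age (adjusted p = 0.187), with no filter on low counts (adjusted p = 0.0773) and in a fit of the 2 mTEClo groups alone (adjusted p = 0.089).

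Among libraries of 5 weeks alone, Foxn1 was at 147 and 161 CPM in 2 KO mTEClo libraries, against 89, 107 and 109 CPM in 3 WT mTEClo libraries, a change of 0.65 (adjusted p = 0.00488). Those KO libraries had 1883769 and 1639231 counts and those WT libraries 2998595 to 3369652, so depth and genotype cannot be told apart there. There was no WT library of 6 weeks in either gate. WT mTEClo libraries of 4 weeks held 53.2 to 98.6 CPM of Foxn1. Replicates 1 and 2, with 1804090 and 1628778 counts, held 78.1 and 98.6 CPM. Replicates 3 to 5, with 3749071 to 3883437 counts, held 53.2 to 61.6 CPM. The genotype change in mTEChi minus that in mTEClo was 0.02 ± 0.28 for Foxn1 (adjusted p = 0.971), with a 95% interval of -0.52 to 0.57.

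Pax1, a paired box factor needed for the pharyngeal pouches and for full thymus growth in mice, lies at chr2:147361925-147393295 on the plus strand (ENSMUSG00000037034). It had 188, 188, 215 and 215 CPM in KO mTEClo, against 96.2, 115 and 142 CPM as lowest, median and highest in WT mTEClo. Every KO mTEClo library was above every WT one, and the change was 0.82 ± 0.12 (adjusted p = 1.07e-05). In mTEChi the groups overlapped, with 51.3, 43, 46.2 and 41.4 CPM in KO libraries and 41.4, 62.5 and 70 CPM as lowest, median and highest in WT libraries. The change in mTEChi was -0.33 ± 0.14 (adjusted p = 0.0418). It was no longer called without WT mTEChi replicate 3 (adjusted p = 0.0615), 6 (0.076) or 7 (0.0895), without KO mTEChi replicate 2 (0.102) or 4 (0.118), with the replicate number as a block (0.106) or with a term for the libraries without mitochondrial counts (0.0592). The 2 youngest WT mTEChi libraries, of 4 weeks, had 41.4 and 47.7 CPM, inside the KO range, and the 5 of 5 weeks had 50.4 to 70 CPM. In libraries of 5 weeks alone the fall in mTEChi was larger, at -0.43 (adjusted p = 0.00979). The genotype changes of Pax1 differed between the gates by -1.16 ± 0.17 (adjusted p = 1.41e-05). A noncoding neighbour, AI646519, shares exonic bases with Pax1, and since the Tn5 libraries keep no strand their reads there cannot be told apart. AI646519 had at most 2.48 CPM in mTEChi libraries, at most 12.4 CPM in KO mTEClo and at most 7.65 CPM in WT mTEClo.

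The Foxn1 protein is known to bind a short core motif, GACGC, and Psmb11 is one of its known direct targets. The motif was searched on both strands in promoters of 300 bases, 250 before to 50 after the start, from RefSeq on GRCm38.p6. Of the 9 genes 8 had an entry, and 3 of the 8 held the motif, against 27.2% of 32851 promoters of the same length. These 3 are shown because they hold it, 5′ to 3′ on the strand of the gene, and their genes moved in different ways without Aire, Psmb11 and Pax1 rising in mTEClo and Enpep falling in mTEChi. The RefSeq starts of Psmb11 and Pax1 lie inside the longer spans that GENCODE gives these genes. Capitals mark GACGC or, on the other strand, GCGTC, and no matches overlapped.
Psmb11 (chr14:54625060-54625359, plus strand): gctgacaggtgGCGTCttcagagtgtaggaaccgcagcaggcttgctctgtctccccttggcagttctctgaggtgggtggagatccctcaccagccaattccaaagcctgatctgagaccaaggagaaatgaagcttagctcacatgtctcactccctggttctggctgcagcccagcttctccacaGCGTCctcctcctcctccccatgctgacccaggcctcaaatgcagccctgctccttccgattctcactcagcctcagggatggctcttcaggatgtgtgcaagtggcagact
Enpep (chr3:129332700-129332999, minus strand): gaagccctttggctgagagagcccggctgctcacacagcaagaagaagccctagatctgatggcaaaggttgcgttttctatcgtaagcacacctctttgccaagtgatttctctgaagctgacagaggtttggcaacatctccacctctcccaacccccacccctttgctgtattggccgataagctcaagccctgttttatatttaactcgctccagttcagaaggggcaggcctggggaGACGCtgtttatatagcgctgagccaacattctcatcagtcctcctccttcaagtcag
Pax1 (chr2:147364744-147365043, plus strand): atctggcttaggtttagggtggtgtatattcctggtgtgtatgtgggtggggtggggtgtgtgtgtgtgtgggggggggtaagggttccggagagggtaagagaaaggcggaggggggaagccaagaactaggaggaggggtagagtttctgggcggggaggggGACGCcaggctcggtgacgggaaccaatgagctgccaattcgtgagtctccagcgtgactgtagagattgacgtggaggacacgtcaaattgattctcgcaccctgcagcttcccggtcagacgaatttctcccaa
Psmb11 held 2 matches, starting 239 and 62 bases before its start, Enpep 1 match 8 bases before and Pax1 1 match 86 bases before. A match in these letters is not a measured binding site.

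Of the genes that cut peptides, Psmb11 encodes beta5t, the proteasome subunit of cTECs that shapes the peptides on which CD8 T cells are positively selected. It lies at chr14:54621433-54629556 on the plus strand (ENSMUSG00000072423). Psmb11 had 16.2, 15, 20.8 and 16 CPM in KO mTEClo, against 2.01, 3.16 and 14.4 CPM as lowest, median and highest in WT mTEClo. All 4 KO libraries were above all 8 WT libraries, of which replicate 1 alone exceeded 6.63 CPM. The change was 1.83 ± 0.34 (adjusted p = 2.76e-04, 3.56-fold), the largest rise among the 9 genes in either gate. It held in all 27 alternative settings, between 1.61 and 2.54. In mTEChi Psmb11 had 14, 5.73, 7.19 and 7.1 CPM in KO libraries, against 3, 7.25 and 8.1 CPM as lowest, median and highest in WT libraries. Those groups overlapped and the change was 0.34 ± 0.38 (adjusted p = 0.469, 95% interval -0.40 to 1.07). The counts behind these values were low, at 14 to 32 per library in KO mTEChi, 5 to 27 in WT mTEChi, 24 to 70 in KO mTEClo and 5 to 26 in WT mTEClo.

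The genotype changes of Psmb11 differed between the gates by -1.5 ± 0.48 (adjusted p = 0.0225). That difference did not pass in male libraries alone (-1.11, adjusted p = 0.15), without KO mTEClo replicate 3 (adjusted p = 0.0515) or without KO mTEChi replicate 2 (adjusted p = 0.0554).

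Prss16 encodes the thymus-specific serine protease, an endosomal enzyme of cTECs that takes part in making class II peptides. It lies at chr13:22002173-22009742 on the minus strand (ENSMUSG00000006179). Prss16 had 73.1, 109, 130.5 and 77.9 CPM in KO mTEClo, against 35.9, 39.0 and 48.2 CPM as lowest, median and highest in WT mTEClo, with no overlap. The change was 1.32 ± 0.16 (adjusted p = 1.12e-06, 2.49-fold) and held in all 27 alternative settings. In mTEChi it had 83.4, 39.3, 58.5 and 47.2 CPM in KO libraries, against 27.3, 32.3 and 39.9 CPM as lowest, median and highest in WT libraries. Of the KO mTEChi libraries, 3 were above all WT libraries and replicate 2 was just under the highest. The change in mTEChi was 0.83 ± 0.17 (adjusted p = 2.22e-04), and 0.63 (adjusted p = 0.102) with a term for the libraries without mitochondrial counts. The changes in the gates differed by -0.49 ± 0.23, which did not pass (adjusted p = 0.122), but did without KO mTEChi replicate 1 (-0.72, adjusted p = 0.0146) and with library totals in place of TMM factors (-0.67, adjusted p = 0.0338).

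Ctsl encodes cathepsin L, the lysosomal cysteine protease of cTECs needed in mice for the normal selection of CD4 T cells. It lies at chr13:64359337-64370890 on the minus strand (ENSMUSG00000021477). Ctsl had 31.2, 19.6, 21.2 and 35.5 CPM in KO mTEChi, against 66, 74.2 and 91.1 CPM as lowest, median and highest in WT mTEChi. Every KO mTEChi library lay below every WT one, and Ctsl fell by 1.55 ± 0.15 on the log2 scale (adjusted p = 8.92e-10). The fall held in all 24 alternatives, with changes between -1.71 and -1.26. In mTEClo, where the gene was far more abundant, it had 301, 327, 264 and 250.1 CPM in KO libraries, against 219, 258 and 319 CPM as lowest, median and highest in WT libraries. The change there was 0.07 ± 0.12 (adjusted p = 0.688, 95% interval -0.15 to 0.30), and the changes in the gates differed by -1.62 ± 0.18 (adjusted p = 1.16e-07). Gm47123 and Gm49230, which share exonic bases with Ctsl, were at 0 counts in all 23 libraries.

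Of the surface proteins, Enpep encodes glutamyl aminopeptidase, known as Ly51 or BP-1, which trims angiotensin II. It lies at chr3:129269175-129332720 on the minus strand (ENSMUSG00000028024). Enpep had 3.51, 1.23, 5.13 and 1.67 CPM in KO mTEChi, from 8, 3, 15 and 4 counts, against 35.9, 42.3 and 61.2 CPM as lowest, median and highest in WT mTEChi. The 2 groups lay far apart, and Enpep fell by 3.93 ± 0.30 on the log2 scale (adjusted p = 1.56e-11, 15.2-fold lower). This was the largest change among the 9 genes and held in all 24 alternative settings, between -5.25 and -3.68. In mTEClo it had 4.87, 5.01, 9.23 and 15.3 CPM in KO libraries, against 5.09, 5.63 and 6.9 CPM as lowest, median and highest in WT libraries. The 2 KO mTEClo libraries of 5 weeks lay below all WT libraries and the 2 of 6 weeks above all of them.

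The change of Enpep in mTEClo was 0.70 ± 0.27 (adjusted p = 0.0663). With the 5-week KO libraries alone it was -0.25 (adjusted p = 0.701), and with the 6-week ones alone it was 1.08 (adjusted p = 0.00327). It passed without KO mTEClo replicate 1 (0.86, adjusted p = 0.0244) or 2 (0.84, adjusted p = 0.029) and without a term for sex (adjusted p = 0.0375). The genotype changes of the gates differed by -4.63 ± 0.40 (adjusted p = 2.2e-09), the largest such difference among the 9 genes.

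Ly75 encodes DEC-205, an endocytic receptor of the mannose receptor family found on cTECs and on dendritic cells. It lies at chr2:60292103-60383303 on the minus strand (ENSMUSG00000026980). Ly75 had 312, 311, 342 and 347 CPM in KO mTEChi, against 172, 185 and 235 CPM as lowest, median and highest in WT mTEChi, with no overlap. The change was 0.77 ± 0.10 (adjusted p = 5.33e-07), and 0.17 (adjusted p = 0.388) with a term for the libraries without mitochondrial counts. In mTEClo it had 104, 101, 162 and 148 CPM in KO libraries, against 87.6, 100.1 and 107 CPM as lowest, median and highest in WT libraries. The 2 KO mTEClo libraries of 5 weeks lay within the WT range and the 2 of 6 weeks above it. The change in mTEClo was 0.38 ± 0.11 (adjusted p = 0.0132), but 0.03 (adjusted p = 0.907) with the 5-week KO libraries alone and 0.62 (adjusted p = 3.17e-05) with the 6-week ones alone.

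The mTEClo call of Ly75 was lost without KO mTEClo replicate 3 (adjusted p = 0.129) or 4 (adjusted p = 0.0677), with a term for age (0.276), in libraries of 5 weeks alone (0.509), in a fit of the 2 mTEClo groups (0.0517) and with a replicate block (0.0544). The changes of the gates differed by 0.39 ± 0.15 (adjusted p = 0.0492), a call lost in 29 of 35 alternatives, with adjusted p between 0.0108 and 0.162 when single libraries were left out. Gm13571, which shares exonic bases with Ly75, had 11.9 to 20.5 CPM in KO mTEChi, 6.13 to 12.6 in WT mTEChi, 2.71 to 6.85 in KO mTEClo and 1.91 to 5.40 in WT mTEClo.

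**Figure D2:**
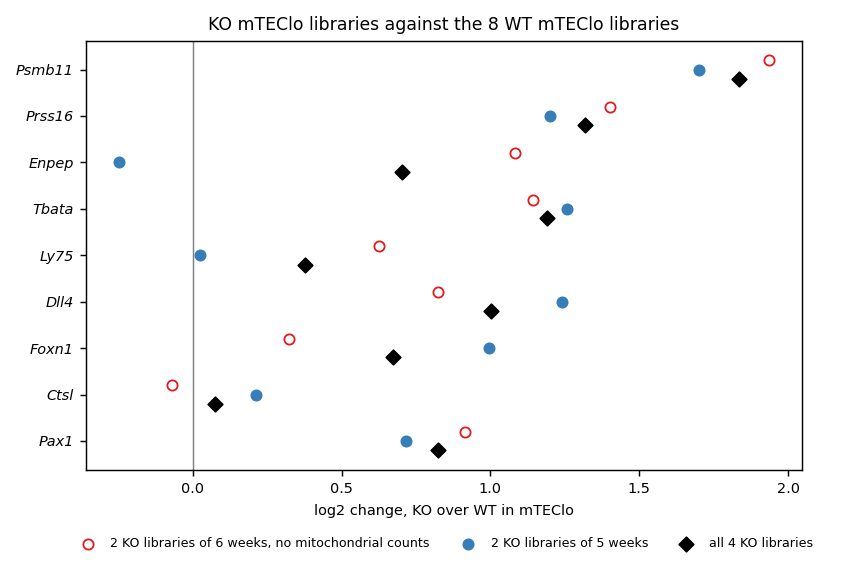
Log2 change of the 9 genes in KO over the 8 WT mTEClo libraries, for the 2 KO libraries of 6 weeks without mitochondrial counts (open circles), the 2 of 5 weeks (filled circles) and all 4 (diamonds). The 2 KO libraries of 5 weeks were also the 2 of lower depth. Psmb11, Prss16, Tbata, Dll4 and Pax1 lie above 0 on both sides of the split, while Enpep is at 1.08 and -0.25, Ly75 at 0.62 and 0.03 and Foxn1 at 0.32 and 0.99 with the 6-week and the 5-week libraries.

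Dll4 encodes the Notch ligand of cTECs that commits incoming progenitors to the T cell lineage. It lies at chr2:119325784-119335962 on the plus strand (ENSMUSG00000027314). Dll4 had 27.6, 32.6, 26.2 and 18.9 CPM in KO mTEClo, against 10.2, 11.7 and 25.3 CPM as lowest, median and highest in WT mTEClo. The ranges overlapped through WT mTEClo replicate 1, since the next WT library was at 13.1 CPM. The change was 1.00 ± 0.20 (adjusted p = 4.73e-04, 2.01-fold) and held in all 27 alternative settings, between 0.83 and 1.4. In mTEChi it had 61, 50.7, 64.4 and 57.2 CPM in KO libraries, against 60.7, 80.4 and 91.2 CPM as lowest, median and highest in WT libraries. The change there was -0.43 ± 0.16 (adjusted p = 0.0274), and -0.01 (adjusted p = 1) with a term for the libraries without mitochondrial counts.

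In libraries of 5 weeks alone the fall of Dll4 in mTEChi was larger, at -0.59 (adjusted p = 5.13e-04). The call was lost without WT mTEChi replicate 6 (adjusted p = 0.0544) or 7 (0.05), without KO mTEChi replicate 2 (0.0932) or 4 (0.0585), with a replicate block (0.118), with a term for age (0.0556) or for the 6 libraries of lowest depth (0.0524), and in males alone (0.0513). The WT mTEChi libraries of 4 weeks were at 60.7 and 64.8 CPM, the first inside the KO range and the other just above it, and the 5 of 5 weeks were at 70 to 91.2 CPM. The changes of Dll4 in the gates differed by -1.44 ± 0.25 (adjusted p = 6.58e-05), a call that held in all 35 alternatives. Gm14207, which shares exonic bases with Dll4, had 6.5 to 10.97 CPM in KO mTEChi, 3.6 to 10.6 in WT mTEChi, 1.25 to 4.87 in KO mTEClo and 1.2 to 2.55 in WT mTEClo.

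Tbata, also known as Spatial, is named for its expression in thymus, brain and testis and is made by stromal cells of the mouse thymus. It lies at chr10:61171954-61188841 on the plus strand (ENSMUSG00000020096). Tbata had 456, 437, 382 and 421 CPM in KO mTEChi, against 249.6, 265 and 307 CPM as lowest, median and highest in WT mTEChi. In mTEClo it had 132, 131, 125 and 117 CPM in KO libraries, against 34.9, 50.6 and 80.8 CPM as lowest, median and highest in WT libraries. Neither pair of groups overlapped, and the KO libraries of each gate lay close together. The changes were 0.59 ± 0.12 in mTEChi (adjusted p = 2e-04) and 1.19 ± 0.13 in mTEClo (adjusted p = 2.21e-07, 2.28-fold), and both held in every alternative tried, 24 and 27. They differed by -0.60 ± 0.18 between the gates (adjusted p = 0.0131), a call lost only at an adjusted p under 0.01.

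**Figure D3:**
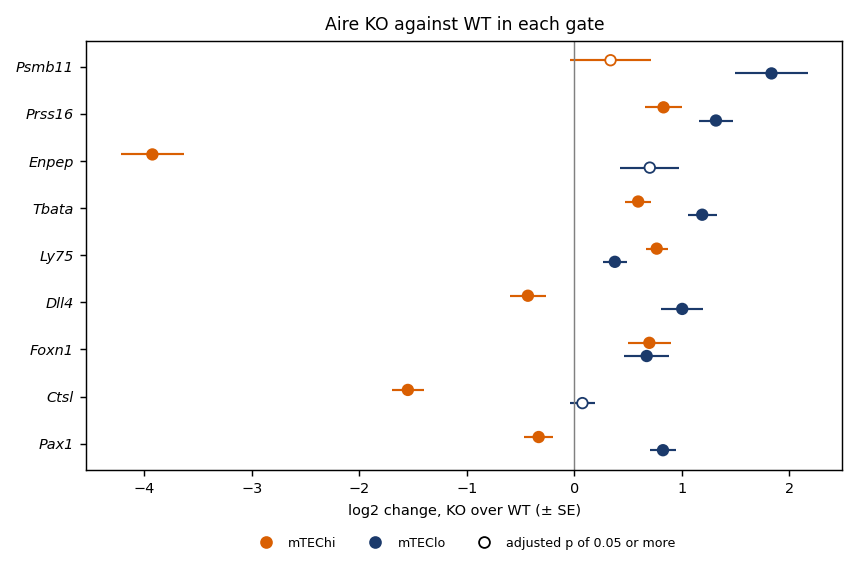
Log2 change in Aire KO over WT, ± SE, for mTEChi (orange) and mTEClo (blue), with open symbols where the adjusted p was 0.05 or more. Enpep (-3.93) and Ctsl (-1.55) fell in mTEChi without a called change in mTEClo, Dll4 and Pax1 lie on opposite sides of 0 in the gates, and Foxn1 lies at about the same change in both.

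Set side by side, the difference between the genotype changes of the gates was called for 7 of the 9 genes, where 24.8% of all genes passed. Ly75 was on the side of a higher change in mTEChi and Psmb11, Enpep, Tbata, Dll4, Ctsl and Pax1 on the side of a lower one, with 10.8% and 14% of all genes on those sides. The median of the 9 differences was -1.16, against -0.02 over all tested genes. With the replicate number as a block 6 of the 9 were called, and Ly75 was not (adjusted p = 0.0536). The sexes could be compared within WT only, and 0 of the 9 genes passed between females and males with edgeR's quasi-likelihood test, nor did any with DESeq2 or at an unadjusted p under 0.05, while 0.0414% of all genes passed, 0.0155% higher and 0.0259% lower in females.

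The gates themselves were compared within each genotype. In WT, Enpep, Dll4, Tbata, Foxn1 and Ly75 were higher in mTEChi and Ctsl and Pax1 lower, 7 of 9 genes called against 70.1% of all genes, 36.7% higher and 33.4% lower. In KO all 9 were called, against 57.2% of all genes, 29.2% higher and 28% lower. Dll4, Tbata, Foxn1 and Ly75 were higher there in KO mTEChi, and Ctsl, Pax1, Enpep, Psmb11 and Prss16 lower. The median log2 difference of the 9 was -0.78 in KO and 0.94 in WT, against 0 and 0.003 over all genes.

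Enpep changed sides between the genotypes. In WT it was 2.96 ± 0.19 higher in mTEChi on the log2 scale (adjusted p = 4.34e-14, 7.79-fold), with no overlap between the gates. In KO the difference of mTEChi from mTEClo was -1.67 ± 0.36 (adjusted p = 2e-04), with ranges of 1.23 to 5.13 CPM in KO mTEChi and 4.87 to 15.3 CPM in KO mTEClo that overlapped. At 5 weeks alone the KO difference was -1.08 and did not pass (adjusted p = 0.0941).

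Psmb11 and Prss16 were lower in KO mTEChi than in KO mTEClo, by -1.02 ± 0.36 (adjusted p = 0.0171) and -0.78 ± 0.18 (adjusted p = 4.47e-04). In WT the differences were 0.47 ± 0.32 for Psmb11 (adjusted p = 0.184) and -0.29 ± 0.14 for Prss16 (adjusted p = 0.0726). For Psmb11 the KO call was lost without KO mTEClo replicate 3 (adjusted p = 0.0534) or KO mTEChi replicate 2 (adjusted p = 0.0593), and the WT difference passed without WT mTEClo replicate 1 (0.80, adjusted p = 0.00977). For Prss16 the WT difference passed without WT mTEClo replicate 7 (-0.35, adjusted p = 0.0379) or WT mTEChi replicate 4 (-0.36, adjusted p = 0.0361), and in a fit of the 2 WT groups alone (-0.25, adjusted p = 0.0208). In libraries of 5 weeks alone neither gene was called between the gates in KO (adjusted p = 0.126 and 0.113), while Psmb11 was in WT (1.16, adjusted p = 0.00397).

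The other 6 genes kept their side of the gates in both genotypes. Dll4 was higher in mTEChi by 1.19 ± 0.19 in KO and by 2.63 ± 0.15 in WT, Tbata by 1.75 ± 0.14 in KO and 2.35 ± 0.11 in WT, and Ly75 by 1.33 ± 0.12 in KO and 0.94 ± 0.087 in WT. Foxn1 was higher in mTEChi by 1.41 ± 0.22 in KO and 1.39 ± 0.17 in WT. Ctsl was lower in mTEChi, at -3.41 ± 0.15 in KO (adjusted p = 2.86e-17) and -1.79 ± 0.10 in WT. Pax1 was lower in mTEChi too, at -2.15 ± 0.14 in KO and -0.99 ± 0.10 in WT. For these 6 genes no library of one gate overlapped those of the other within a genotype.

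**Figure D4:**
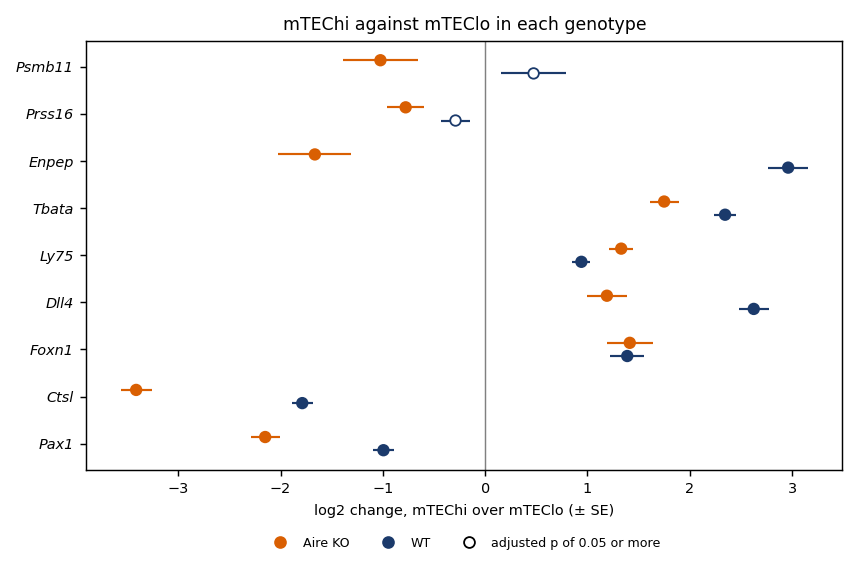
Log2 difference of mTEChi over mTEClo, ± SE, in Aire KO (orange) and in WT (blue), with open symbols where the adjusted p was 0.05 or more. Enpep lies at -1.67 in KO and 2.96 in WT, Ctsl and Pax1 lie below 0 in both genotypes, and Tbata, Ly75, Dll4 and Foxn1 above 0 in both.

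Per kilobase of exon, the order of the 9 genes differed between the gates. In KO mTEChi Tbata was highest at 175 ± 12.98 CPM per kb, followed by Foxn1 at 102 ± 21.4, Ly75 at 47.5 ± 2.76 and Dll4 at 15.1 ± 1.52 (SD, n = 4). Prss16 at 13.6 ± 4.59, Pax1 at 10.1 ± 0.981, Ctsl at 4.14 ± 1.18, Psmb11 at 1.78 ± 0.781 and Enpep at 0.613 ± 0.382 came after them. Dll4 and Prss16, and Prss16 and Pax1, were neighbours within 1 SD of each other there, as their mean ± SD ranges overlapped. In WT mTEChi the order began with Tbata at 111 ± 8.43, Foxn1 at 65.2 ± 10.8, Ly75 at 27.7 ± 2.99 and Dll4 at 20.2 ± 3.30 CPM per kb (SD, n = 7). Pax1 at 12.8 ± 2.44, Ctsl at 11.8 ± 1.39, Enpep at 9.64 ± 1.93 and Prss16 at 7.67 ± 1.02 followed with overlapping ranges from each to the next, and Psmb11 was last at 1.30 ± 0.397.

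In KO mTEClo Tbata had the highest mean, 52.1 ± 2.79 CPM per kb, before Pax1 at 44.8 ± 3.42, Ctsl at 44.03 ± 5.42 and Foxn1 at 39.0 ± 10.5 (SD, n = 4). The range of Tbata overlapped those of Ctsl and Foxn1, and the ranges of Pax1, Ctsl and Foxn1 overlapped one another. Prss16 at 23.3 ± 6.47 overlapped Foxn1 above it and Ly75 at 18.7 ± 4.47 beneath it, and Dll4 at 6.84 ± 1.46, Psmb11 at 3.56 ± 0.542 and Enpep at 1.83 ± 1.04 were last. In WT mTEClo Ctsl led at 40.7 ± 4.82 CPM per kb, before Pax1 at 26.1 ± 3.73, Foxn1 at 25.4 ± 7.06 and Tbata at 22.1 ± 6.32, which overlapped from each to the next (SD, n = 8). Ly75 at 14.3 ± 0.796, Prss16 at 9.47 ± 0.942 and Dll4 at 3.43 ± 1.29 came next. Enpep at 1.21 ± 0.127 and Psmb11 at 1.03 ± 0.850 were lowest and did not differ beyond their spread.

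Other genes cited for cTECs lay in both directions. Of 11 tested, 2 rose and 4 fell in KO mTEChi, where 25.7% of all genes rose and 28% fell, so the share called was close to that of all genes. In KO mTEClo 5 rose and 1 fell, where 12% of all genes rose and 9.69% fell, and the median log2 changes of the list were 0.08 in mTEChi and 0.52 in mTEClo. Cxcl12, the chemokine that draws progenitors into the cortex, fell to 3.17 ± 1.10 CPM in KO mTEChi, against 12.5 ± 3.06 CPM in WT mTEChi (-1.97 ± 0.39, adjusted p = 1.56e-04). Il7, the survival cytokine of early thymocytes, averaged 83.6 ± 7.06 CPM in KO mTEChi and 114 ± 11.4 CPM in WT mTEChi (-0.46 ± 0.10, adjusted p = 2.83e-04). In mTEClo Cd83, a surface protein that steadies MHC class II, rose to 6.88 ± 3.24 CPM in KO, against 1.75 ± 0.621 CPM in WT (1.94 ± 0.28, adjusted p = 8.52e-06). Kitl, the stem cell factor, averaged 34.9 ± 19.6 CPM in KO mTEClo and 14.8 ± 4.04 CPM in WT mTEClo (1.47 ± 0.25, adjusted p = 1.28e-04). Fgfr2, the receptor of the epithelial fibroblast growth factors, was lower in mTEChi in both genotypes, at 19.5 ± 2.40 CPM in KO mTEChi against 349 ± 22.3 in KO mTEClo, and at 29.5 ± 6.26 in WT mTEChi against 423 ± 32.2 in WT mTEClo.

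Among 13 regulators of thymus organ formation, the family that Pax1 and Foxn1 act with, 4 rose and 2 fell in KO mTEChi and 5 rose and 0 fell in KO mTEClo. The 6 called in mTEChi were a smaller share than the 53.7% of all genes, and the 5 in mTEClo stand beside 21.7% of all genes. Pax9, the paralog of Pax1, rose in both gates, to 139 ± 5.62 CPM in KO mTEChi against 103 ± 9.79 in WT mTEChi, and to 215 ± 16.2 CPM in KO mTEClo against 172 ± 8.87 in WT mTEClo. Its log2 changes were 0.43 ± 0.083 (adjusted p = 7.13e-05) and 0.33 ± 0.08 (adjusted p = 0.00392). Foxn3, a forkhead relative of Foxn1, rose to 316 ± 40.7 CPM in KO mTEChi, against 168 ± 18.5 in WT mTEChi (0.89 ± 0.089, adjusted p = 2.77e-09). Six4 rose to 174 ± 10.3 CPM in KO mTEClo, against 135 ± 9.40 in WT mTEClo (0.37 ± 0.10, adjusted p = 0.00806). Between the gates 2 of the 13 were higher and 9 lower in KO mTEChi, and 4 higher and 7 lower in WT mTEChi, where 57.2% and 70.1% of all genes were called. Eya1 and Isl1 were lower in mTEChi in both genotypes, Eya1 at -2.06 ± 0.11 in KO and -2.23 ± 0.082 in WT, and Isl1 at -2.43 ± 0.17 in KO and -1.70 ± 0.12 in WT.

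Of 20 other proteasome subunits and activators, set beside Psmb11, 7 rose and 1 fell in KO mTEChi and 5 rose and 1 fell in KO mTEClo. The 8 called in mTEChi were a smaller share than the 53.7% of all genes, and the 6 in mTEClo stand beside 21.7%. The median log2 changes were 0.13 and 0.02, beside 0.34 and 1.83 for Psmb11. Psmb10, a subunit of the immunoproteasome, had 167 ± 20.2 CPM in KO mTEChi and 94.1 ± 10.4 in WT mTEChi (0.81 ± 0.11, adjusted p = 3.95e-07), and 79.8 ± 10.8 CPM in KO mTEClo and 47.0 ± 5.12 in WT mTEClo (0.75 ± 0.12, adjusted p = 2.51e-05). Psmb2, a subunit of the constitutive core, rose by 0.81 ± 0.11 in KO mTEChi (adjusted p = 4.87e-07) and by 0.64 ± 0.11 in KO mTEClo (adjusted p = 1.51e-04). Between the gates, 13 of the 20 were higher in mTEChi in KO and 16 in WT, with 0 and 1 lower, where 29.2% and 36.7% of all genes were higher, while Psmb11 was lower in KO mTEChi and not called in WT.

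Of 16 other lysosomal proteases and class II loading genes, set beside Ctsl and Prss16, 6 rose and 2 fell in KO mTEChi and 6 rose and 0 fell in KO mTEClo, beside 53.7% and 21.7% of all genes called. H2-DMa, which helps exchange peptides on class II, averaged 191 ± 29.6 CPM in KO mTEChi and 114 ± 2.45 in WT mTEChi (0.75 ± 0.099, adjusted p = 3.62e-07). Ctsh, another cathepsin, averaged 378 ± 43.4 CPM in KO mTEChi and 239 ± 21.4 in WT mTEChi (0.63 ± 0.11, adjusted p = 3.92e-05), while Ctsl fell in the same libraries. Ctss, the cathepsin of dendritic cells and medulla that trims the invariant chain, was higher in mTEChi, by 2.07 ± 0.12 in KO (adjusted p = 1.31e-14) and 1.76 ± 0.092 in WT (adjusted p = 2.48e-16). Of the 16 genes 8 were higher and 2 lower in KO mTEChi than in KO mTEClo, and 11 higher and 1 lower in WT mTEChi than in WT mTEClo, beside 57.2% and 70.1% of all genes called.

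Of 18 tested Notch ligands, receptors, modifiers and targets other than Dll4, 6 rose and 5 fell in KO mTEChi and 4 rose and 3 fell in KO mTEClo, beside 53.7% and 21.7% of all genes called. The receptor Notch3 fell in both gates, to 17.1 ± 2.12 CPM in KO mTEChi against 37.3 ± 10.0 in WT mTEChi (-1.15 ± 0.18, adjusted p = 4.53e-06), and to 73.9 ± 10.9 CPM in KO mTEClo against 181 ± 17.9 in WT mTEClo (-1.28 ± 0.14, adjusted p = 1.99e-07). Heyl, a Notch target, fell to 15.0 ± 2.30 CPM in KO mTEChi, against 30.6 ± 5.06 in WT mTEChi (adjusted p = 5.25e-06). Rfng, a glycosyltransferase of Notch receptors, rose to 61.6 ± 8.22 CPM in KO mTEClo, against 33.8 ± 2.12 in WT mTEClo (0.83 ± 0.12, adjusted p = 7.13e-06). Between the gates, 4 of the 18 were higher and 11 lower in KO mTEChi, and 5 higher and 11 lower in WT mTEChi. Of all genes 57.2% and 70.1% were called in those comparisons. The ligands Dll1, Jag2 and Jag1 lay on the opposite side of the gates from Dll4, each in the genotype given. Dll1 was lower in mTEChi by -2.94 ± 0.16 in KO, Jag2 by -3.50 ± 0.21 in KO and Jag1 by -1.25 ± 0.074 in WT.

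Of 12 other aminopeptidases, membrane peptidases and relatives of Prss16, 2 rose and 7 fell in KO mTEChi and 0 rose and 4 fell in KO mTEClo, beside 28% and 9.69% of all genes that fell. Ace, the angiotensin-converting enzyme that makes the peptide trimmed by the Enpep product, fell to 0.497 ± 0.520 CPM in KO mTEChi, against 50.5 ± 16.2 CPM in WT mTEChi (-6.68 ± 0.56, adjusted p = 6.42e-10). In WT it was also higher in mTEChi than in mTEClo, where it averaged 3.01 ± 2.68 CPM (4.20 ± 0.31, adjusted p = 4.98e-12), which is the side on which Enpep lay. Mme, or neprilysin, fell in both gates, to 2.91 ± 1.68 CPM in KO mTEChi against 17.7 ± 4.24 in WT mTEChi, and to 13.2 ± 2.74 CPM in KO mTEClo against 56.5 ± 8.94 in WT mTEClo. Of 4 genes of the mannose receptor family or its neighbourhood, 3 fell in KO mTEChi and 1 rose in KO mTEClo. Of all genes, 28% fell in KO mTEChi and 12% rose in KO mTEClo. None of the 4 rose in KO mTEChi as Ly75 did. Mrc2 fell to 0.380 ± 0.443 CPM in KO mTEChi, against 19.4 ± 7.25 in WT mTEChi (-5.54 ± 0.73, adjusted p = 7.42e-07). In mTEClo Mrc2 averaged 4.66 ± 5.11 CPM in KO and 1.46 ± 0.951 in WT (1.97 ± 0.57, adjusted p = 0.0155). Mrc1 averaged 64.4 ± 20.9 CPM in KO mTEChi and 117 ± 16.5 in WT mTEChi (-0.86 ± 0.19, adjusted p = 3.24e-04).

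Markers of medullary epithelium and of other cells were measured beside these changes. For all the marker counts below, 25.7% of all tested genes rose and 28% fell in KO mTEChi. In KO mTEClo 12% rose and 9.69% fell. EpCAM RNA was at 202 to 237 CPM in KO mTEChi, 215 to 309 in WT mTEChi, 233 to 264 in KO mTEClo and 227 to 324 in WT mTEClo. Of 13 mTEC genes 2 rose and 3 fell in KO mTEChi, Aire among those that fell, and 0 rose and 1 fell, Aire, in KO mTEClo. Summed over 12 thymocyte markers, the level was 41.1 to 53.9 CPM in KO mTEChi, 74.6 to 95.2 in WT mTEChi, 15.7 to 24.3 in KO mTEClo and 17.8 to 28.6 in WT mTEClo, and of 7 tested 6 fell in KO mTEChi and 1 in KO mTEClo. The 12 markers of dendritic cells and macrophages, which also carry Ly75, summed to 408 to 463 CPM in KO mTEChi, 362 to 440 in WT mTEChi, 145 to 197 in KO mTEClo and 89.2 to 130.4 in WT mTEClo. Such sums can rest largely on 1 gene. Lyz2 alone averaged 290 ± 18.6 CPM in KO mTEChi and 192 ± 22.4 in WT mTEChi. Of the 11 tested, 2 rose and 8 fell in KO mTEChi and 2 rose in KO mTEClo. The 2 in mTEClo were Lyz2, at 88.9 ± 14.8 CPM in KO against 34.2 ± 9.04 in WT (adjusted p = 9.94e-07), and Cd68, at 26.3 ± 2.52 against 9.42 ± 1.66 (adjusted p = 1.19e-06). In mTEChi Cd68 rose to 46.5 ± 8.87 CPM in KO against 22.5 ± 5.26 in WT (adjusted p = 5.62e-06). Adgre1 fell there to 0.902 ± 0.850 CPM in KO against 37.2 ± 5.66 in WT (adjusted p = 1.43e-09). Itgax, which defines dendritic cells, had at most 0.835 CPM in KO mTEChi, at most 9.64 in WT mTEChi, at most 2.17 in KO mTEClo and at most 2.44 in WT mTEClo.

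The 9 endothelium markers, a cell type that also carries Dll4, summed to 50.3 to 73.6 CPM in KO mTEChi, 77.3 to 113 in WT mTEChi, 63.9 to 102 in KO mTEClo and 48.02 to 72.3 in WT mTEClo. Of 7 tested, 5 fell and 0 rose in KO mTEChi, beside 28% of all genes that fell. In KO mTEClo 2 rose, Tek and Pecam1, and 5 were not called, beside 12% of all genes that rose. Tek averaged 66.3 CPM in KO mTEClo and 41.1 CPM in WT mTEClo (0.65 ± 0.19, adjusted p = 0.0147). Pecam1 averaged 6.7 CPM in KO mTEClo and 3.73 CPM in WT mTEClo (0.77 ± 0.27, adjusted p = 0.0378). The median log2 change of the 7 in mTEClo was -0.03. Cdh5, which defines endothelium, was at 0 in all 4 KO mTEClo libraries and in 7 of 8 WT mTEClo libraries, and had at most 0.878 CPM in KO mTEChi and 8.71 in WT mTEChi. The 10 fibroblast markers summed to 235 to 255 CPM in KO mTEChi, 323 to 482 in WT mTEChi, 407 to 491 in KO mTEClo and 592 to 734 in WT mTEClo, with 1 higher and 6 lower of 9 in KO mTEChi and 2 higher and 1 lower in KO mTEClo. The 1 lower there was Fbn1, which alone averaged 254 ± 43.5 CPM in KO mTEClo and 530 ± 54.3 in WT mTEClo. Col3a1 rose to 31.9 ± 19.9 CPM in KO mTEClo, against 9.80 ± 3.40 in WT mTEClo. The 5 B cell markers summed to 107 to 149.8 CPM in KO mTEChi, 60.01 to 89.4 in WT mTEChi, 23.8 to 36.9 in KO mTEClo and 12.8 to 19.5 in WT mTEClo, with 2 of 4 higher in each gate and 1 lower in KO mTEChi. Of 8 testis germ cell genes, set beside Tbata, 2 were tested, of which Tnp2 rose in both gates and Ddx4 fell in KO mTEChi. Tie1 was at 0 in KO mTEChi, and Ptcra, Clec9a, Cdh5 and Tie1 in KO mTEClo. Apart from those values, the part of other cell types in the changes of the 9 genes was not tested.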

How the data were processed

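The authors deposited a table of raw counts per Ensembl gene with 1 column per library. Per the labels' protocols, cDNA of total RNA was fragmented and tagged by Tn5, which keeps no strand. The submitters' processing notes list HTSeq 0.11.2 and edgeR among the tools, then STAR 2.7.3a with SAMtools 1.9, and also fastp 0.20.0 and Picard 2.21.1, on mm10 and GRCm38, without their roles or order. A normalized table was not used here.

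A filter by group with a minimum count of 10 kept 19310 genes. One quasi-likelihood model in edgeR 4.0.16 (R 4.3.3) covered all 23 libraries, with TMM scaling and terms for group and sex, and p-values were adjusted by Benjamini-Hochberg over all genes. CPM used the TMM-scaled totals of the tested genes. The SE is the change divided by the square root of F, and 95% intervals are taken from it. The scripts were tested on simulated data. Positions are from GENCODE M21 on GRCm38, and the exonic length is the union of exons.

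The members, the 14 other lists and the tests were chosen with earlier results of these data known. The text names all 9 members, Aire, and for each member the 2 genes with the highest correlation. The rule for the other lists took the called genes with the smallest p, up to 2 per list and comparison. Only part of those genes is named, and many of the marker lists are left out. Genes that share exonic bases with a member, Epcam, and defining or absent markers of other cell types are named outside that rule, chosen after their values were seen. Of 253 pairs of libraries, 0 were identical. Samples of the same number in KO mTEChi and KO mTEClo deviated together (4 of 4 pairs, r 0.166 to 0.352). Unlike numbers were not compared, and the same numbers share an age in both KO gates, so this check cannot show pairing. Between WT mTEChi and mTEClo, r of the same numbers was -0.216 to 0.137. Between KO and WT it was -0.307 to -0.085 in mTEChi and 0.086 to 0.184 in mTEClo. Alternatives changed the normalization, filter, threshold, covariates, samples, block and test (DESeq2 1.42.0), or left out 1 library each. The term for the 6 libraries without mitochondrial counts, the fits with part of the KO mTEClo libraries or with libraries of 5 weeks alone, and the block within KO were added after seeing the data.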

Additional observations from a re-analysis of the deposited data

Results flagged for a closer look

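In 4 of 36 sets of libraries of 1 gene and 1 group, a single library stood far from the others, where chance gives about 1 in 20, or 1.8, for independent sets. The genes share the same libraries, so these sets are not independent. Psmb11 was at 14.4 CPM in WT mTEClo replicate 1, against at most 6.63 CPM in the other 7 WT mTEClo libraries. Dll4 was at 25.3 CPM in the same library, against at most 13.1 CPM. Prss16 was at 48.2 CPM in WT mTEClo replicate 3, against at most 40.8 CPM. Ly75 was at 235 CPM in WT mTEChi replicate 2, against at most 197 CPM. WT mTEClo replicate 1 and WT mTEChi replicate 2 were among the 6 libraries of lowest depth, and WT mTEClo replicate 3 was not.

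For 7 genes the log2 change of Aire KO over WT differed between the gates by the test of the difference in edgeR. The change in mTEChi minus that in mTEClo was -4.63 for Enpep, -1.62 for Ctsl, -1.5 for Psmb11, -1.44 for Dll4, -1.16 for Pax1, -0.60 for Tbata and 0.39 for Ly75.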

How the results depend on the processing

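With a term for the 6 libraries without mitochondrial counts, 4 members remained called in KO mTEChi. They were 2 higher (Foxn1 and Tbata) and 2 lower (Enpep and Ctsl). This alternative was chosen after seeing the data, and its term is fitted from the KO mTEClo libraries alone and carried over to mTEChi. For the difference between gates 4 were called at an adjusted p under 0.01. Leaving out single libraries gave 6 to 8 members called in mTEChi, 6 to 7 in mTEClo, 8 to 9 and 7 to 8 between the gates in KO and WT, 5 to 7 for the difference and 0 to 0 for sex. The replicate block gave 6, 6, 9, 7, 6 and 0, and with the KO libraries alone 9. It changed no call between the gates in KO.

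Changes that were not called turned sign 19 times. The Foxn1 difference between gates was -0.033 with RLE factors, -0.15 with library totals, -0.075 with the replicate block, -0.034 with DESeq2, and -0.11 to 0.17 without single libraries. Enpep in mTEClo was -0.24 with the term for the 6 libraries, -0.25 with the 5-week KO libraries and -0.38 at 5 weeks alone. Ctsl in mTEClo was -0.0063 to 0.13 without single libraries, lowest without KO mTEClo replicate 2, and -0.0705 with the 6-week KO libraries. The cause was not tested. Of all genes, 6872 against 10366 passed in mTEChi with the term for the 6 libraries, 5 against 8 between the sexes with the block, 2856 against 4792 for the difference at an adjusted p under 0.01, and in mTEClo, against 4186, 2240 at that threshold, 1504 with a term for age and 2703 at 5 weeks. A fit of only the groups compared cannot be set up for the difference between gates, nor one without sex for the sexes.

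Depth limits Psmb11 and Enpep, with as few as 5 and 3 counts in a library. The 6 libraries and the genotype cannot be told apart in mTEChi. All libraries of 6 weeks are KO, and all KO libraries are male.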

Other observations

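For each of the 9 genes, the 2 tested genes most like it were taken by Pearson correlation of log2 CPM over all 23 libraries, as a description. The libraries come from 2 gates and 2 genotypes, and r runs across all 4 groups. Psmb11 and Prss16 had the lowest values, with Rpp38 (0.79) and Gpx4 (0.78) beside Psmb11 and with Plppr3 (0.84) and 1110038B12Rik (0.84) beside Prss16. Enpep was nearest to Acoxl (0.95) and Greb1 (0.95). Acoxl averaged 0.892 CPM in KO mTEChi, 31.7 in WT mTEChi, 2.42 in KO mTEClo and 2.41 in WT mTEClo, and Greb1 0.329, 16.7, 1.27 and 1.01 CPM in the same groups. Tbata was nearest to Crip3 (0.99) and Reln (0.99), and Reln averaged 311 CPM in KO mTEChi, 159 in WT mTEChi, 30.4 in KO mTEClo and 5.77 in WT mTEClo. Ly75 was nearest to Hdac9 (0.98) and Pdrg1 (0.98), Dll4 to Msh5 (0.98) and Tnnt2 (0.97), and Foxn1 to Txndc15 (0.99) and Fscn1 (0.98). Ctsl was nearest to Igfbp5 (0.99) and Grhl2 (0.98), and Pax1 to Mrgprf (0.97) and Bcr (0.97). Igfbp5, a binding protein of insulin-like growth factors, averaged 102 CPM in KO mTEChi, 259.8 in WT mTEChi, 1100.0 in KO mTEClo and 1046 in WT mTEClo.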
